A study of Mus musculus with 13 samples.

Results

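Heat shock proteins are molecular chaperones that bind proteins in non-native shapes, keep them from aggregating and help them fold. The genes described here are the 10 that encode the main cytosolic chaperones and the mitochondrial Hsp60 and Hsp10 chaperonin, out of 24417 named genes in each count table. They are Hspa1a, Hspa1b and Hspa8 of the Hsp70 family, Hsp90aa1 and Hsp90ab1 of the Hsp90 family, the Hsp110 gene Hsph1, the Hsp40 gene Dnajb1, the small heat shock protein gene Hspb1, and the mitochondrial genes Hspd1 and Hspe1. They were chosen by name as a family after Hspa1a had been noticed for its low values in rescued compared with control Treg cells. The differences of all members between those populations, and those of Hspa1a and Hspa1b between either of them and wannabes, are therefore descriptions without a test.

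RNA was measured in 5 sorted populations of mouse CD4 T cells from pooled spleen and lymph nodes, with 13 libraries in 2 separate count tables. All mice are C57BL/6. The male table holds 3 control Treg libraries from healthy Foxp3DTR-GFP/yCd4creERT2 mice. It also holds 3 rescued Treg libraries from Foxp3LSL/yCd4creERT2 mice and 2 Treg wannabe libraries from Foxp3LSL/yCd4wt mice, and the paper describes both kinds as diseased. Each of these males had been given 1 dose of 4-hydroxytamoxifen (4-OHT) at 14 days of age and was analysed at 21 days, 7 days later. The Foxp3LSL allele carries a Thy1.1 reporter and a STOP cassette between loxP sites, so its carriers make wannabes, cells that transcribe the locus without Foxp3 protein. Cd4creERT2 is a tamoxifen-inducible Cre at the Cd4 locus, so that excision is possible in any cell that transcribes Cd4 and not in Treg cells alone. The female table holds 3 resting wannabe libraries from Foxp3LSL/WTCd4wt mice, which keep wild-type Treg cells, and 2 activated wannabe libraries from Foxp3LSL/DTRCd4wt mice. The design text of the series gives these numbers the other way round, and the genotypes in the sample labels were followed. The females were 9 to 11 weeks old by the labels and received 4 injections of diphtheria toxin in the week before analysis, the last of them 1 day before, which removes the Treg cells only where the DTR allele is present. The drug in the males, and the toxin in the females, was thus common to every population within a table. Treg cells were gated as Foxp3 reporter positive and Thy1.1 negative, and wannabes as Thy1.1 positive and Foxp3 negative, with 2 rounds of sorting.

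The Hsp70 cycle begins when an Hsp40 such as Dnajb1 hands a client to Hsp70, and an exchange factor such as Hsph1 resets it. Hspa8 is made constitutively, whereas Hspa1a and Hspa1b are the classical inducible copies that cells transcribe through the heat shock factor Hsf1 after heat, oxidative or proteotoxic stress. Hsp90 matures kinases and nuclear receptors, including kinases of T cell receptor signalling, and Hspd1 and Hspe1 form the folding chamber of the mitochondrial matrix. Cell isolation and sorting can induce these copies and immediate early genes, and for that reason every library is given.

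Heat shock factor binds inverted repeats of a short GAA unit, and the promoter windows that hold such repeats are shown as background. Any part of such repeats in the differences between populations was not tested. Of the 10 members, 7 had an entry in the RefSeq promoter table (GRCm38.p6), with 10 start sites in all; Hspa8, Hsp90aa1 and Hsp90ab1 had none. The 250 bases before each start were searched for GAANNTTC and TTCNNGAA, each of which reads the same on both strands and may overlap the other. Among 32851 promoter entries of that length, 6.69% hold GAANNTTC, 7.17% hold TTCNNGAA, 12.8% hold either and 0.466% hold 3 alternating units in a row. Capitals mark the matched block in each window, written 5′ to 3′ on the strand of the gene.
Hspa1a and Hspa1b, chr17:34972213-34972300 and chr17:34959295-34959382, minus strand: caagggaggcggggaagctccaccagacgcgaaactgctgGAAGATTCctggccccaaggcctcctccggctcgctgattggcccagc
Hspb1, chr5:135887762-135887869, plus strand: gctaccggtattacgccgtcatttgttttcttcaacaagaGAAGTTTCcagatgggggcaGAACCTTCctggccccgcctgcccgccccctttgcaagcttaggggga
Hsph1, chr5:149636351-149636380, minus strand: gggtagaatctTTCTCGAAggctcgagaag
Hspe1, chr1:55088053-55088082, plus strand: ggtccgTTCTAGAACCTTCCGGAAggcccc
Hspd1, chr1:55088053-55088082, minus strand: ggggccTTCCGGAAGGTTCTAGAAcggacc

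The inducible Hsp70 genes share the first of these windows letter for letter, with the block 104 to 97 bases before each start, and their 250-base promoters differ at 3 positions. Hspe1 and Hspd1 are neighbours transcribed in opposite directions, so their windows are the same bases read on either strand. That block holds 3 of the 2-unit matches and 2 runs of 3 units, and lies 89 to 72 bases before the Hspe1 start and 144 to 127 bases before the second of the 2 Hspd1 starts. The first Hspd1 start and both Dnajb1 starts had no match in their windows. A match is a run of letters, not a measured binding site.

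The members lie on 6 chromosomes of GRCm38 by GENCODE release M21. The single-exon genes Hspa1a (chr17:34969190-34972156) and Hspa1b (chr17:34956436-34959238) and the gene Hsp90ab1 (chr17:45567775-45573271) are on chromosome 17. Hspb1 (chr5:135887919-135889563) and Hsph1 (chr5:149614287-149636376) are on chromosome 5, and Hspd1 (chr1:55077835-55088243) and Hspe1 (chr1:55088132-55091307) overlap by 112 exonic bases on chromosome 1. Hspa8 (chr9:40800984-40810087), Hsp90aa1 (chr12:110690605-110702728) and Dnajb1 (chr8:83608193-83612653) are alone on theirs. Near-identical copies limit the counting: 58.8% of the 50-base windows in the Hspa1a transcript also occur in Hspa1b, and 62.3% of those in Hspa1b occur in Hspa1a. Windows shared with any other annotated gene make up 58.5% for Hsp90aa1, 52.7% for Hspa8, 51.6% for Hspb1 and 44.8% for Hspd1, against 8.2% or less for Hspe1, Hsp90ab1, Dnajb1 and Hsph1. How reads from shared windows were assigned is not given in the sources used here, so the split between such copies is uncertain. Hspa1a also overlaps the antisense gene Gm20481 over 564 exonic bases, and Hspa8 hosts the small nucleolar RNAs Snord14c, Snord14d and Snord14e.

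Total counts per library lay between 25556783 and 36659638. Levels are given as CPM, the counts of a gene scaled to a fixed library total after TMM normalization that was done separately in the male and the female table, so levels set side by side across the tables were not put on a common scale. The T cell genes Cd3e (742 to 1192 CPM) and Cd4 (390 to 1371 CPM) were present in all 13 libraries. Foxp3 lay at 167 to 252 CPM in control Treg, 865 to 1110 CPM in rescued Treg and 52.8 to 99.8 CPM in the 3 wannabe populations. Thy1 was at 36.4 to 46.7 CPM in the 6 Treg libraries and at 176 to 327 CPM in the 7 wannabe libraries. Markers of other cells were low, at 9.80 to 44.1 CPM summed over 5 B cell genes, 1.58 to 13.1 CPM over 7 myeloid genes, 12.8 to 36.6 CPM over 5 CD8 and NK cell genes and 0.992 to 18.3 CPM over 4 erythroid genes in the tables. All 10 members together took 0.195% to 0.48% of the counts of a library. In bulk RNA of this kind, fewer cells expressing a gene and less RNA per cell cannot be told apart.

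One library stood furthest from its replicates over these genes. Control Treg replicate 1 had the highest level among the 8 male libraries for 7 of the 9 members that passed the filter on low counts. Its members lay above the mean of the other 2 control libraries by a median of 0.53 on the log2 scale, and by 4.40 for Hspa1b, while over all 14925 genes tested the median was 0.00. Other chaperone lists were also highest in that library among the 3 controls, at sums of 3810 against 3137 and 3179 CPM for co-chaperones, 3578 against 2785 and 2907 CPM for the chaperonin CCT and prefoldin, and 4743 against 3777 and 3935 CPM for the endoplasmic reticulum. The members' differences from control Treg cells are therefore also given without it. Rescued Treg replicate 2 lay above the mean of the other rescued libraries for all 9 members, by a median of 0.30. Rescued Treg replicate 3 was lowest of the 8 male libraries for 5 of 9. In the female table, resting wannabe replicate 3 was highest of the 5 libraries for all 9 members, by a median of 0.27 over the other resting libraries, and activated wannabe replicate 1 was lowest for 7 of 9.

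**Figure D1:**
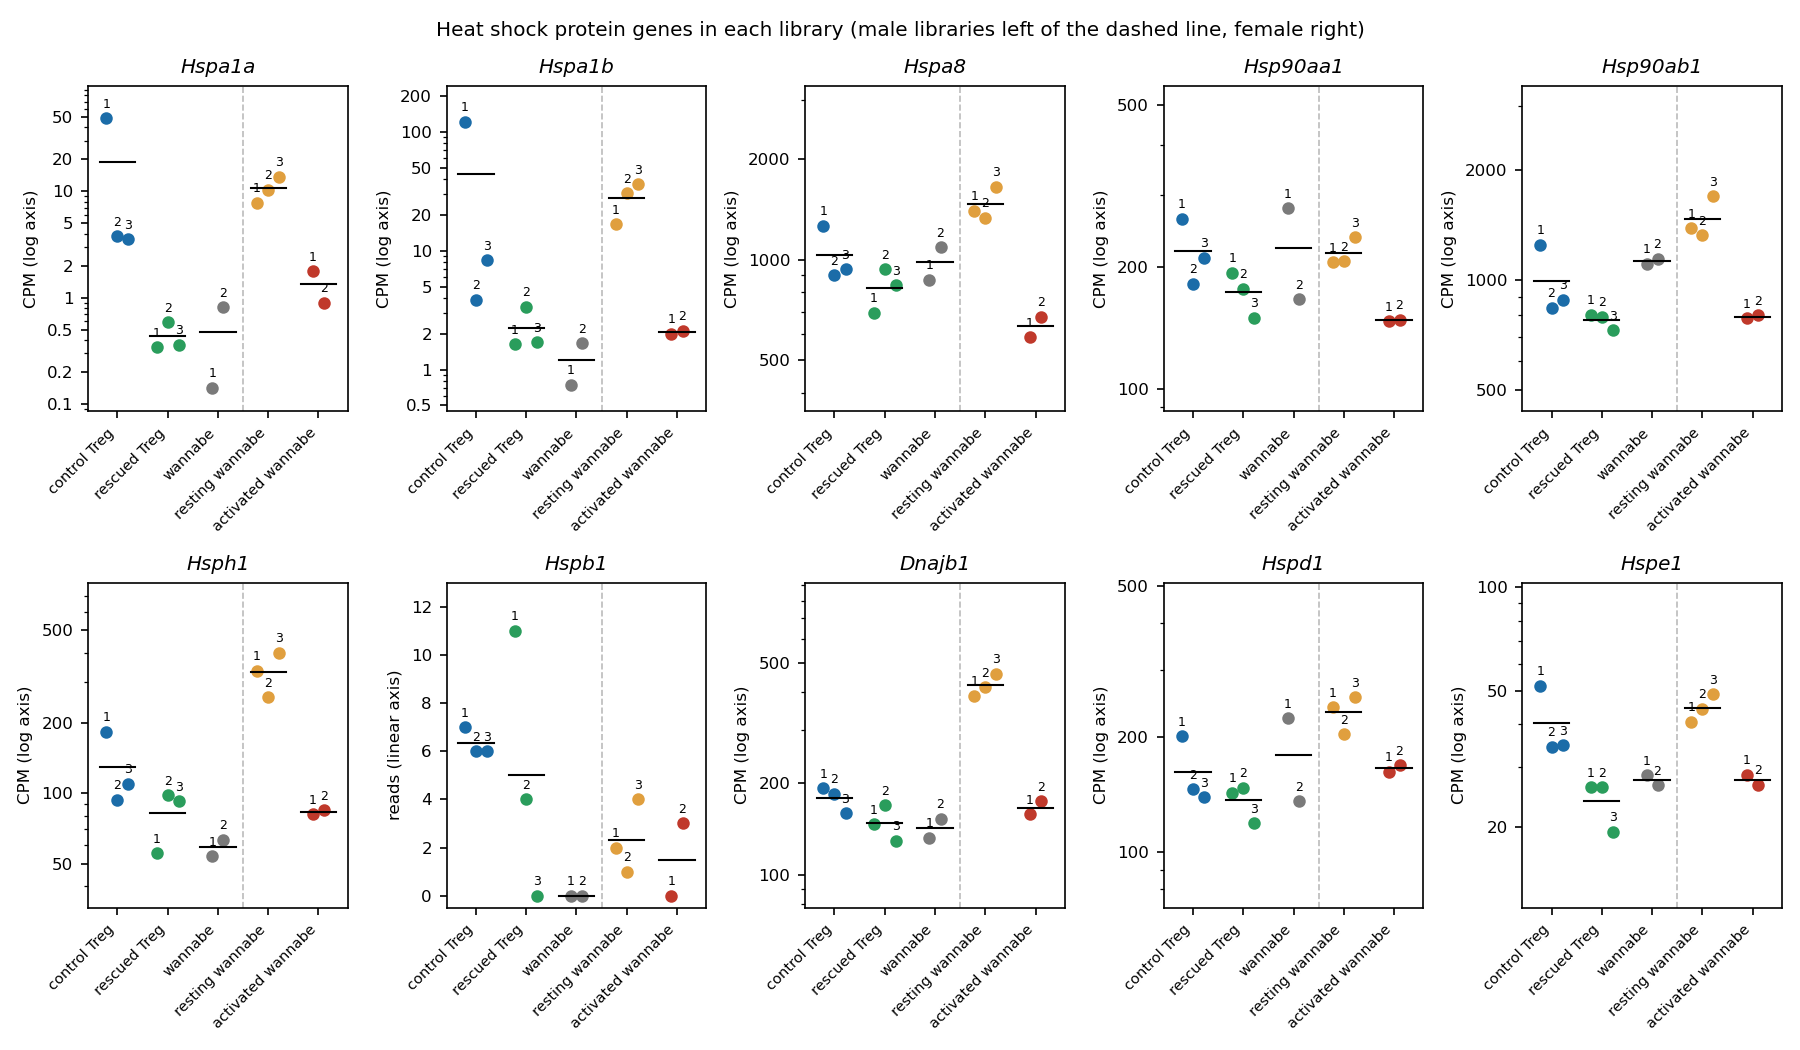
Level of each member in every library, in CPM on a log axis (reads on a linear axis for Hspb1), with points numbered by replicate and bars at the group means; male libraries stand left of the dashed line and female ones right. Control Treg replicate 1 lies far above the other male libraries for Hspa1a (49.0 CPM) and Hspa1b (122 CPM), and the 3 resting wannabe libraries lie above both activated ones in every panel except that of Hspb1.

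The inducible Hsp70 genes spanned the widest range of the family. Hspa1a stood at 49.0, 3.81 and 3.54 CPM in control Treg replicates 1 to 3, at 0.346, 0.593 and 0.364 CPM in rescued Treg and at 0.143 and 0.821 CPM in wannabes. Every control library was thus above every rescued and wannabe library, but replicate 1 was 12.9 times as high as the next. In the female table Hspa1a was at 7.87, 10.4 and 13.8 CPM in resting wannabes and at 1.78 and 0.900 CPM in activated ones, with no overlap. These levels rest on 5 to 25 reads per library in rescued Treg and male wannabes, and on 28 to 1498 reads elsewhere.

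Hspa1b, the neighbouring near-copy, was likewise highest in control Treg replicate 1 and lowest in wannabe replicate 1. It stood at 122, 3.89 and 8.37 CPM in control Treg, at 1.64, 3.40 and 1.71 CPM in rescued Treg and at 0.745 and 1.67 CPM in wannabes. Here again control replicate 1 was alone, 14.5 times as high as the next library, and the lowest control library was only just above the highest rescued one. Resting wannabes held 16.8, 30.4 and 36.2 CPM and activated wannabes 2.01 and 2.12 CPM. Hspa1b made up 50.5% to 85.1% of the reads of both copies over the 13 libraries.

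Hspa8, the constitutive Hsp70, was among the most abundant members and varied far less. It was at 1262, 900 and 938 CPM in control Treg, 694, 939 and 841 CPM in rescued Treg and 872 and 1090 CPM in wannabes, and all 3 populations overlapped. In resting wannabes it was at 1401, 1334 and 1652 CPM and in activated wannabes at 588 and 676 CPM, which do not overlap. The reads of both inducible copies came to 13.5% of the Hspa8 reads in control replicate 1, and to 0.856% and 1.27% in the other controls. This share was 0.246% to 0.425% in rescued Treg, 0.102% and 0.229% in male wannabes, 1.76% to 3.06% in resting wannabes and 0.645% and 0.447% in activated wannabes.

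Of the Hsp90 genes, Hsp90ab1 encodes the constitutive beta form and Hsp90aa1 the more inducible alpha form. Hsp90ab1 was at 1248, 840 and 884 CPM in control Treg, at 803, 793 and 729 CPM in rescued Treg and at 1108 and 1144 CPM in wannabes. The rescued libraries lay below all other male libraries, and of the controls only replicate 1 reached above the wannabes. In resting wannabes it was at 1388, 1328 and 1697 CPM, above the 786 and 801 CPM of activated wannabes.
Hsp90aa1 was at 263, 182 and 210 CPM in control Treg, 194, 177 and 150 CPM in rescued Treg and 279 and 166 CPM in wannabes, and the male populations overlapped. It was at 206, 207 and 237 CPM in resting and at 147 and 148 CPM in activated wannabes, with no overlap.

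Hsph1 and Dnajb1, the exchange factor and the Hsp40 that work with Hsp70, differed most between the female populations among the abundant members. Hsph1 was at 335, 257 and 400 CPM in resting wannabes and at 81.3 and 84.5 CPM in activated wannabes. In the males it was at 183, 94.0 and 110 CPM in control Treg, 55.3, 98.2 and 92.4 CPM in rescued Treg and 53.9 and 63.3 CPM in wannabes. The controls did not overlap the wannabes, but the rescued libraries fell on both sides. Dnajb1 was at 389, 416 and 460 CPM in resting and 158 and 174 CPM in activated wannabes. Its male levels were 193, 185 and 159 CPM in control Treg, 147, 169 and 130 CPM in rescued Treg and 132 and 153 CPM in wannabes, with every control above both wannabe libraries.

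Hspb1, a small heat shock protein of muscle and epithelium, was barely detected. Its reads numbered 7, 6 and 6 in control Treg, 11, 4 and 0 in rescued Treg, 0 and 0 in wannabes, 2, 1 and 4 in resting and 0 and 3 in activated wannabes. It did not pass the filter in either table and was not tested. A count of 0 allows up to 3 reads, or 0.0818 to 0.117 CPM over the range of library totals, and covers counting error only.

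Hspd1 (Hsp60), of the mitochondrial chaperonin, was at 201, 146 and 139 CPM in control Treg, 143, 148 and 119 CPM in rescued Treg and 224 and 136 CPM in wannabes, so that the gap between both wannabe libraries exceeded the differences between the population means. It was at 240, 204 and 255 CPM in resting and 162 and 169 CPM in activated wannabes, with no overlap. Its partner Hspe1 (Hsp10) was at 51.6, 34.3 and 34.7 CPM in control Treg, 26.2, 26.2 and 19.5 CPM in rescued Treg and 28.3 and 26.5 CPM in wannabes. All controls were above every other male library. Resting wannabes held 40.6, 44.3 and 48.9 CPM of Hspe1 and activated wannabes 28.5 and 26.6 CPM.

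Per kilobase of exon, Hsp90ab1 was the most abundant member and Hspa8 the next in all 5 populations. In control Treg cells these levels were 330 ± 74.7 and 240 ± 46.3 CPM per kb (SD, n = 3) and their ranges overlapped, whereas in resting wannabes they were 490 ± 66.1 and 340 ± 39.0 CPM per kb (n = 3) and did not. Hspd1 came next in 4 populations, with ranges that overlapped that of its neighbour in the male populations. In resting wannabes Dnajb1 took that place at 132 ± 11.2 CPM per kb, above Hspd1 at 88.1 ± 9.94 CPM per kb (n = 3), with no overlap. Dnajb1, Hsp90aa1, Hspe1 and Hsph1 followed in the other 4 populations, with Hsp90aa1 ahead of Dnajb1 but overlapping it in male wannabes, while in resting wannabes Hsph1 (45.5 ± 9.81 CPM per kb) was above Hspe1 (30.3 ± 2.82 CPM per kb). Hspa1b, Hspa1a and Hspb1 had the lowest means everywhere, although Hspa1b overlapped Hsph1 in control Treg cells, with Hspb1 at 0.184 CPM per kb or less.

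**Figure D2:**
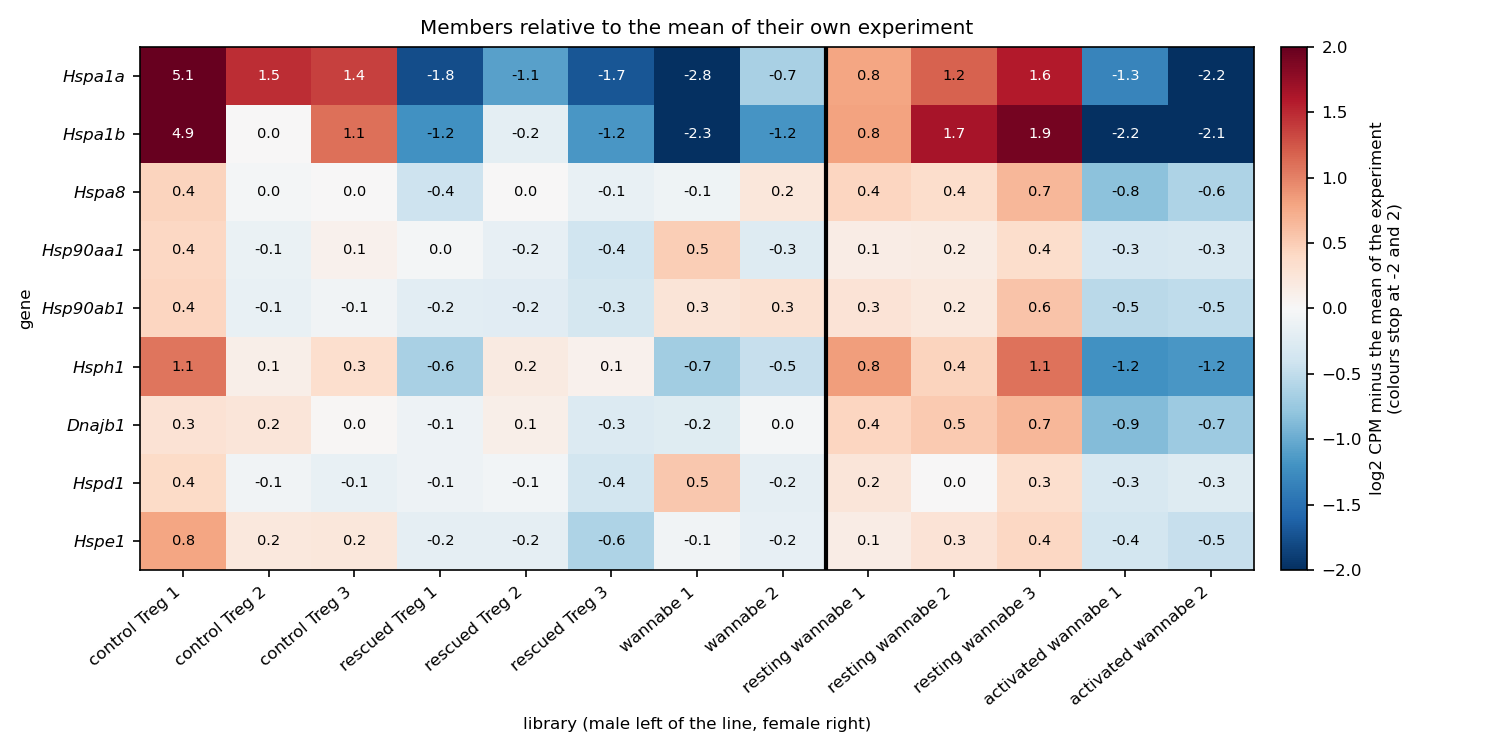
Log2 CPM of the 9 tested members in each of the 13 libraries, minus the mean of the gene over its own table, with male libraries left of the line and female ones right; colours stop at -2 and 2 and each cell prints its value. The column of control Treg replicate 1 is above the mean for all 9 genes, and the female columns separate resting from activated wannabes for all 9.

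The female table compares wannabes in mice that keep wild-type Treg cells with wannabes in mice that have lost them. All 9 tested members fell from resting to activated wannabes in edgeR's quasi-likelihood test, at adjusted p between 0.000632 and 0.0242, and none rose. Over all 13166 genes tested, 11.2% fell and 11.3% rose at the same threshold (adjusted p under 0.05). In all 9 members every resting library was above both activated libraries, a pattern that 28.6% of all genes tested share. The median difference was -1.21 on the log2 scale, against -0.01 for all genes. All 9 also fell without resting replicate 3, the highest for every member, and 8 without resting replicate 1, where Hspd1 was lost.

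The inducible copies showed the largest differences. Hspa1b fell by 3.75 ± 0.38 (log2 fold change ± SE; adjusted p = 0.00147), a fitted level 13.5 times higher in resting wannabes, and Hspa1a fell by 2.99 ± 0.40 (adjusted p = 0.00394), a fitted level 7.93 times higher. The Hsp70 partners followed. Hsph1 fell by 2.00 ± 0.19 (adjusted p = 0.00119), Dnajb1 by 1.34 ± 0.10 (adjusted p = 0.000632) and Hspa8 by 1.21 ± 0.12 (adjusted p = 0.00134). These 5 members kept their calls whichever of the 5 libraries was left out.

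Smaller differences were found for the remaining members. Hsp90ab1 fell by 0.89 ± 0.12 (adjusted p = 0.00387) and Hsp90aa1 by 0.55 ± 0.09 (adjusted p = 0.00838). Hspe1 fell by 0.69 ± 0.12 (adjusted p = 0.00994) and Hspd1 by 0.49 ± 0.11 (adjusted p = 0.0242). The call of Hspd1 ended without resting replicate 1 (adjusted p = 0.0564) and with the replicate number as a block (0.0558). With a single activated library the count of calls depended on which one stayed: 5 members passed without activated replicate 1 and 6 without replicate 2, the members lost being among Hsp90aa1, Hsp90ab1, Hspd1 and Hspe1. In those fits the lone library is assumed to vary like the resting ones.

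Other measures moved with this difference. Summed over 14 immediate early genes, resting wannabes held 6641 to 7199 CPM and activated wannabes 4753 to 5276 CPM, and 8 of the 14 fell and 1 rose, against 6 and 0 without either activated library. All 14 proliferation genes rose in activated wannabes, from a sum of 1057 to 1312 CPM to one of 2956 to 3120 CPM. The 5 B cell markers, none of them without reads in either population, summed to 9.80 to 12.1 CPM in resting and 22.5 to 24.7 CPM in activated wannabes. The 7 myeloid markers summed to 1.63 to 5.43 CPM in resting and 5.50 to 9.52 CPM in activated wannabes, where S100a8 and S100a9 had no read. The 5 CD8 and NK cell markers summed to 12.8 to 19.4 CPM in resting wannabes, where Ncr1 had no read, and 19.4 to 20.1 CPM in activated wannabes. The 4 erythroid markers summed to 0.992, 1.55 and 18.3 CPM in resting replicates 1 to 3 and to 1.91 and 1.80 CPM in activated wannabes, so that resting replicate 3 stood apart there too. The part of any of these in the difference of the heat shock genes was not tested.

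**Figure D3:**
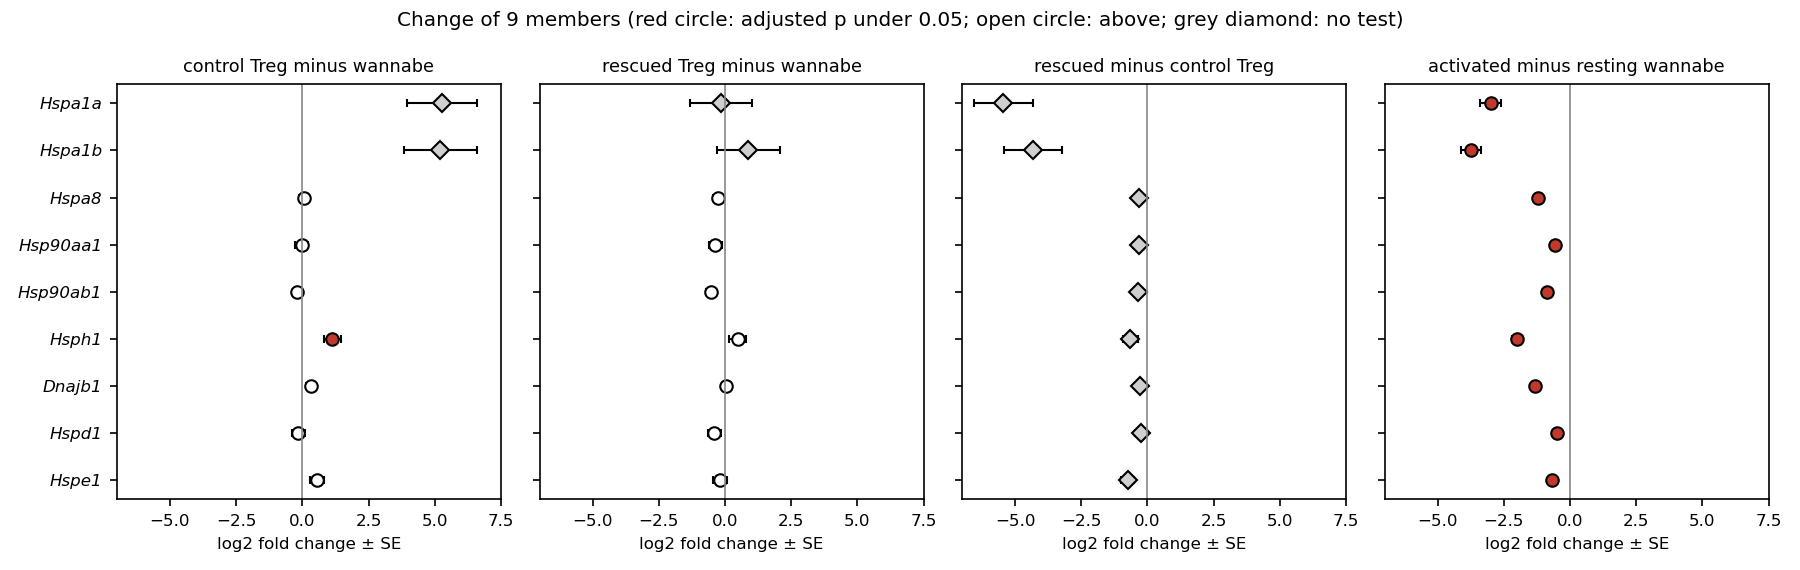
Log2 fold change with its standard error for the 9 tested members in the 4 comparisons, with red circles for an adjusted p under 0.05, open circles for one above and grey diamonds where no test was made. Red fills all 9 places in the comparison of activated with resting wannabes and 1 place, Hsph1, in that of control Treg cells with wannabes.

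The other chaperone genes were not shifted alike in this comparison. Of 30 tested cytosolic co-chaperones and regulators, 15 fell and 4 rose, with a median difference of -0.33, and when an activated library was left out 5 or 6 passed, all of them falls. The largest falls were of the Hsp40 genes Dnajb4 (30.6 ± 6.61 to 7.04 ± 0.0858 CPM, log2 difference -2.12, adjusted p = 0.00157), Dnaja1 (494 ± 46.0 to 167 ± 4.81 CPM, -1.56, adjusted p = 0.00046) and Dnajb2 (30.8 ± 4.62 to 11.8 ± 1.05 CPM, -1.38, adjusted p = 0.00316), each with SD over 3 resting and 2 activated libraries in edgeR. The largest rises were of Fkbp5, an Hsp90-binding immunophilin (log2 difference 1.67, adjusted p = 0.0215), Hspa2, an Hsp70 best known from testis (1.21, adjusted p = 0.0166), and the exchange factor Bag2 (1.02, adjusted p = 0.0306). The falls of these Hsp40 genes passed whichever library was left out, whereas none of these rises passed without activated replicate 1 or without activated replicate 2. Hsf1, of the same list, was singled out after its values were seen, so no p is given for it. It was at 170 CPM in resting and 114 CPM in activated wannabes (log2 difference -0.58). Its male means were 92.5 CPM in control Treg, 69.8 CPM in rescued Treg and 53.1 CPM in wannabes.

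Chaperones that serve other compartments or substrates had medians close to that of all genes. Of 14 subunits of the cytosolic chaperonin CCT and prefoldin, which fold actin and tubulin, 1 fell (Cct4, by 0.33, adjusted p = 0.0206) and none rose, with a median of -0.04. Of 10 other mitochondrial chaperones and proteases 2 fell, the Hsp40 gene Dnaja3 by 0.50 (adjusted p = 0.00818) and the exchange factor gene Grpel2 by 0.40 (adjusted p = 0.0446), with a median of 0.01. Of 15 chaperones of the endoplasmic reticulum, Dnajb9 fell by 0.82 (adjusted p = 0.00713) and Sdf2l1 rose by 0.60 (adjusted p = 0.0237), with a median of -0.02. In these 3 lists no gene passed without activated replicate 1 or without activated replicate 2, and Grpel2 was lost without any one of the 5 libraries. The immediate early genes with the largest falls were Jun (by 1.51, adjusted p = 0.00308), Fos (by 1.09, adjusted p = 0.0215) and Klf6 (by 0.94, adjusted p = 0.000783), whereas Ier3 rose by 3.20 (adjusted p = 0.00647), a call lost without either activated library, and by 3.803 without resting replicate 2. The mitotic genes Birc5, Ccnb1 and Aurkb rose most among the proliferation genes, by 3.36, 3.27 and 2.88 (adjusted p = 0.000644, 0.00145 and 0.00131).

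**Figure D4:**
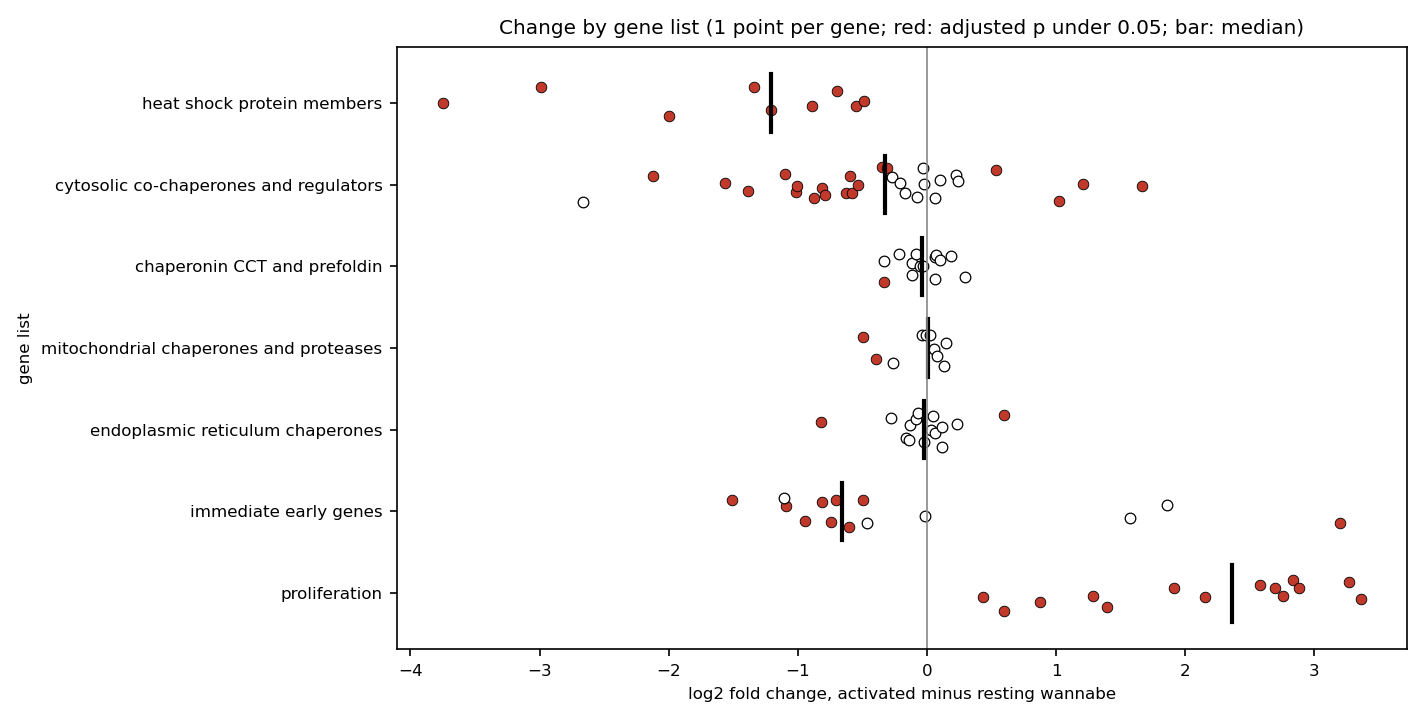
Log2 fold change from resting to activated wannabes for each tested gene of 7 lists, with red points for an adjusted p under 0.05 and bars at the list medians. All 9 heat shock members are red and left of 0, the co-chaperones spread to both sides with a median of -0.33, and the chaperonin, mitochondrial and endoplasmic reticulum lists centre near 0.

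Control Treg cells and male wannabes differ in Foxp3, in the Cre allele and in the health of the mouse. Of the 7 members tested there, Hsph1 rose in control Treg cells by 1.14 ± 0.32 on the log2 scale (128.9 ± 47.5 CPM, n = 3, against 58.6 ± 6.68 CPM, n = 2; adjusted p = 0.0332 in edgeR's test), and none fell. Over all 14925 genes tested, 9.92% rose and 6.27% fell. The 936 that fell became 513, 507 and 564 without control replicates 1, 2 and 3 in turn. The call for Hsph1 was lost without control replicate 1 (log2 difference 0.80, adjusted p = 0.110) and without control replicate 3 (1.24, adjusted p = 0.0524). Its difference was 1.02 without wannabe replicate 1 and 1.21 without wannabe replicate 2. In fits with a lone wannabe library the spread comes from the Treg populations only. Over the alternatives that keep both wannabe libraries, the adjusted p of Hsph1 lay between 0.00571 and 0.110.

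The remaining 6 tested members did not pass. Hspe1 (log2 difference 0.55 ± 0.27, adjusted p = 0.196) and Dnajb1 (0.33 ± 0.18, adjusted p = 0.238) were higher in every control library than in both wannabe libraries. The share of all genes with that pattern was not counted. In the reverse direction, 3085 of all 14925 genes tested had no overlap. Hspa8 (0.07 ± 0.19), Hsp90aa1 (-0.03 ± 0.24), Hspd1 (-0.15 ± 0.24) and Hsp90ab1 (-0.18 ± 0.17) had adjusted p between 0.506 and 0.952. Without control replicate 1 these 6 still did not pass, at log2 differences of 0.33 for Hspe1, 0.27 for Dnajb1, -0.094 for Hspa8, -0.18 for Hsp90aa1, -0.34 for Hspd1 and -0.39 for Hsp90ab1 (adjusted p between 0.120 and 0.786), so that the sign of Hspa8 turned. As a description without a test, Hspa1a was higher in control Treg cells by 5.29 ± 1.32 and Hspa1b by 5.21 ± 1.38, and without control replicate 1 by 2.93 and 2.34. Without wannabe replicate 2 the difference of Hspa1a was 6.95 and that of Hspa1b 5.85, the highest values when a library was left out.

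Rescued Treg cells regained Foxp3 in mice that carry the Cre allele, and share the wannabe libraries as their reference with the comparison above. None of the 7 members tested passed edgeR's quasi-likelihood test, where 10.0% of all genes rose and 4.06% fell. The 606 genes that fell became 222, 347 and 348 when 1 rescued library was left out (replicates 2, 3 and 1), 373 without wannabe replicate 2 and 334 with only these 2 populations. At an unadjusted p under 0.05 there was 1, Hsp90ab1, lower in rescued Treg cells by 0.54 ± 0.17 on the log2 scale (775 ± 40.1 CPM, n = 3, against 1126 ± 25.9 CPM, n = 2; adjusted p = 0.0608). DESeq2 also passed 1 member, Hsp90ab1, at an adjusted p of 0.0290. Over all alternatives run the adjusted p of Hsp90ab1 lay between 0.0261 and 0.160. As a description without a test, the differences of the inducible copies were -0.15 ± 1.16 for Hspa1a and 0.89 ± 1.18 for Hspa1b, and their libraries overlapped. They were -0.94 and 0.41 without wannabe replicate 1, and 1.51 and 1.53 without wannabe replicate 2. The other 6 tested members lay between -0.40 and 0.48, with adjusted p between 0.302 and 0.872.

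Rescued and control Treg cells both have Foxp3, at 865 to 1110 CPM in rescued and 167 to 252 CPM in control Treg. The rescued cells came from Foxp3LSL males that the paper calls diseased, 7 days after 4-OHT, and the controls from healthy Foxp3DTR-GFP males. This contrast led to the choice of the family, so it is given without tests. All 9 members had lower values in rescued Treg cells, with a median difference of -0.35 on the log2 scale against -0.03 for all genes. The rescued libraries lay wholly below the controls for 4 members, Hspa1a, Hspa1b, Hsp90ab1 and Hspe1, as they did for 11.6% of all genes tested. Hspa1a differed by -5.44 ± 1.11 and Hspa1b by -4.32 ± 1.10, and without control replicate 1 by -3.08 and -1.45. Hspe1 differed by -0.75 ± 0.24, Hsph1 by -0.65 ± 0.28, and Hsp90ab1 by -0.35 ± 0.16. The remaining 4 lay between -0.33 and -0.25. Without control replicate 1 the differences of these other 7 were nearer to 0, at -0.53 for Hspe1, -0.31 for Hsph1 and -0.15 for Hsp90ab1.

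The immediate early genes summed to 2864, 2778 and 2174 CPM in control Treg, 3768, 3126 and 2175 CPM in rescued Treg and 1691 and 2439 CPM in wannabes. Control replicate 1, highest for most members, was thus next to control replicate 2 in this sum. The proliferation genes summed to 1549, 1041 and 1791 CPM in control Treg, 2789, 1734 and 1881 CPM in rescued Treg and 3974 and 2201 CPM in wannabes. Wannabe replicate 1, which had the highest Hspd1 and Hsp90aa1 of the male libraries, also had the highest of these sums. The part of either in the values of the members was not tested.

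The lists around the family were mixed in the male comparisons. Of 31 tested co-chaperones and regulators, 6 rose and none fell in control Treg cells against wannabes (median 0.12, against 0.09 for all genes), and 3 passed without control replicate 1. Fkbp4, an Hsp90-binding immunophilin, rose by 1.56 (adjusted p = 0.00231), Hspa4, of the Hsp110 family, by 1.50 (adjusted p = 0.00679) and Ptges3, the Hsp90 partner p23, by 1.49 (adjusted p = 0.0253). Ptges3 was lost without control replicate 1, control replicate 3 or wannabe replicate 2, and its difference was 2.24 without wannabe replicate 1. In rescued Treg cells against wannabes 7 rose and 1 fell (median 0.10, against 0.00). Bag1, an exchange factor, rose by 2.52 (63.5 ± 59.9 CPM, SD, n = 3, against 11.1 ± 5.01 CPM, n = 2; adjusted p = 0.025), Hspa4 by 2.29 (adjusted p = 0.000708) and the Hsp40 gene Dnaja4 by 2.24 (adjusted p = 0.00276), while Hspbp1 fell by 0.64 (adjusted p = 0.041). The difference of Bag1 was 1.38 without rescued replicate 1 and its call was lost without wannabe replicate 2, and that of Hspbp1 was kept in 2 of the 8 fits that leave out a library.

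Of 14 CCT and prefoldin genes, 0 passed edgeR's or DESeq2's test in control Treg cells against wannabes and 1, Pfdn6, had an unadjusted p under 0.05. In rescued Treg cells 2 fell, Cct3 by 0.65 (adjusted p = 0.0368) and Cct5 by 0.52 (adjusted p = 0.0359), each kept in only 1 of the 8 fits that leave out a library. Of the 10 mitochondrial genes, 0 passed edgeR's test in control Treg cells, 4 had an unadjusted p under 0.05 and 1, Lonp1, passed DESeq2's test. In rescued Treg cells the protease Lonp1 rose by 2.07 (adjusted p = 0.00443) and the protease Clpp fell by 0.85 (adjusted p = 0.0287). Clpp was lost without rescued replicate 1, rescued replicate 3 or wannabe replicate 2. In the endoplasmic reticulum list, Pdia3, Dnajc3 and Creld2 rose against wannabes in both Treg populations, which share those wannabes, by 1.58, 1.30 and 1.04 in control and by 1.54, 1.77 and 1.60 in rescued Treg cells. Calr and Pdia6 fell in control Treg cells by 0.65 and 0.54, so that 5 of the list passed there, 2 of them lower. Without control replicate 2, or without control replicate 3, 3 passed and 0 were lower, and without wannabe replicate 1 Creld2 was lost. Of 14 immediate early genes 4 rose and 1 fell in control Treg cells and 5 rose in rescued Treg cells, among the rises Jun (2.30 and 2.59) and Dusp1 (1.62 and 2.73). The fall in control Treg cells was that of Ier3, by 3.60 (2.82 ± 0.231 CPM, n = 3, against 34.3 ± 5.57 CPM, n = 2; adjusted p = 0.000158 in edgeR), which passed whichever library was left out. Jun rested on 12.3 ± 9.52 CPM in wannabes, so that its differences were 1.66 and 1.96 without wannabe replicate 1 and 3.39 and 3.68 without wannabe replicate 2. Dusp1 was at 79.5 ± 56.9 CPM in rescued Treg cells, and its difference there was 1.96 without rescued replicate 1. The 4 rises in control Treg cells became 1 without control replicate 1, 1 without control replicate 2, 2 without wannabe replicate 2 and 0 without wannabe replicate 1, and the 5 in rescued Treg cells became 3 without wannabe replicate 1. Of 14 proliferation genes 9 fell in control Treg cells, but 3 without control replicate 1, 5 without control replicate 2 and 3 without wannabe replicate 1. In rescued Treg cells 3 fell and 1 rose, with 1 to 6 falls and 0 to 2 rises when a library was left out (1 and 2 without wannabe replicate 1, 6 and 0 without wannabe replicate 2).

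Over the 8 male libraries, the genes whose log2 CPM followed Hspa1a most closely among 10784 with a mean normalized count over 100 were Casp6 (Pearson r = 0.985), Lman2l (0.964), Hspa1b (0.956), Utp11l (0.944) and Gm15735 (0.943). Hspe1 ranked 29th (0.887) and Hsph1 51st (0.870), whereas Hsp90aa1 (0.314) and Hspd1 (0.214) followed it weakly. The genes nearest to Hsp90ab1 were Diablo (0.962), Sept6 (0.957), Cct3 (0.954), Stip1 (0.950) and Cct5 (0.948), of which Cct3 and Cct5 are chaperonin subunits and Stip1 links Hsp70 to Hsp90. Those nearest to Hspd1 were Pnp2 (0.949), Cct8 (0.948), Wdr75 (0.947), 4930483K19Rik (0.944) and Tmem41b (0.944), and Hsp90aa1 ranked 6th (0.940). These are descriptions over libraries that fall into 3 populations, and the Hspa1a values hold control replicate 1 as a far point. Over the 5 female libraries, which fall into resting and activated wannabes, Hsp90aa1 (0.969) and Hspd1 (0.884) followed Hspa1a more closely than in the males.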

How the data were processed

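Sorted populations of mouse T cells were sequenced as paired 50-base reads after SMART-Seq amplification of 2 ng RNA. Per the methods, the authors used STAR 2.7.3a to align reads to GRCm38, then GATK for local realignment, and R for the counting. The deposited values are raw counts per gene and library, in 1 table of 8 male and 1 of 5 female libraries. The annotation and strand setting of the counting are not given in the sources used here. The methods name separate mice for the female libraries and call the male ones biological replicates. Reads carry no molecular identifiers, so the zero-count limit covers counting error only.

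Each table was fitted on its own in edgeR 4.0.16 (R 4.3.3): TMM, filterByExpr, quasi-likelihood F test, Benjamini-Hochberg adjustment over all 14925 (male) or 13166 (female) genes tested, threshold 0.05. The 8 male libraries shared a fit. Entries without a gene name (4 per table, at most 0.00841% of counts) were left out. Log2 CPM used a prior count of 2. CPM per kb divides by the merged exon length of GENCODE M21. Replicate numbers were not taken as pairs and were not a block in the main fit. Alternatives were DESeq2 1.42.0, its size factors in edgeR, no low-count filter, a replicate block, only the populations compared, Hspa1a and Hspa1b summed, and leaving out each library. The scripts were tested on simulated data with 100 genes changed 2-fold and 100 changed 4-fold. Of the 2-fold changes, edgeR's test recovered 21 in control Treg against wannabes and 71 in activated against resting wannabes. Of the 4-fold changes it recovered 78 and 96. A member that did not pass in the male table may therefore still differ.

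The members and gene lists were chosen with earlier results of these data known. Genes named are the members, up to 3 rises and 3 falls of each list among those past the threshold, and the 5 genes most correlated with Hspa1a, Hsp90ab1 and Hspd1 over the male libraries. Outside this rule stand the label checks, cell markers and Pfdn6. Hsf1 and the opposite directions of Dnaja4 were also outside it and were picked after their values were seen.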

Additional observations from a re-analysis of the deposited data

Results flagged for a closer look

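Dnaja4, an Hsp40 partner of Hsp70 outside the 10 members, moved in opposite directions in the 2 tables. From resting to activated wannabes it fell by 1.01 on the log2 scale, from 93.3 ± 5.94 CPM (SD, n = 3) to 46.3 ± 1.69 CPM (n = 2), and from control to rescued Treg cells its level was higher by 1.24, at 29.7 ± 8.93 CPM against 12.6 ± 2.49 CPM (n = 3 each). Dnaja4 was picked for these opposite directions. In both contrasts the libraries did not overlap, a pattern that 28.6% of all genes tested share for falls in activated wannabes. The share for rises from control to rescued Treg cells was not counted. Without control Treg replicate 1 the difference in the males was 1.33. The difference between the contrasts was not tested, and the tables were normalized separately.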

How the results depend on the processing

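Members passing in control Treg against wannabes numbered 1, and 0 with the replicate block (Hsph1 adjusted p = 0.0518) and 0 to 1 when a library was left out. In rescued Treg against wannabes 0 passed, but 1 with DESeq2, 1 with only the 2 populations compared (Hsp90ab1 adjusted p = 0.0491), and 0 to 1 when a library was left out. In activated against resting wannabes 9 passed, 8 with the replicate block (Hspd1 adjusted p = 0.0558) and 5 to 9 when a library was left out; co-chaperones passing went from 19 to between 5 and 18. Among the lists, the 6 co-chaperones passing in control Treg became 13 with DESeq2, 10 without a filter and 3 without control replicate 1, the 8 in rescued Treg became 5 with only 2 populations, the 3 endoplasmic reticulum genes in rescued Treg became 5 with DESeq2, and the chaperonin and mitochondrial lists (0 to 2 main calls) ranged from 0 to 3. Over all genes, DESeq2 passed 2134 higher and 1617 lower in control Treg (1480 and 936 in edgeR) and 2062 and 1254 in rescued Treg (1499 and 606), the replicate block passed 954 lower in activated wannabes, and with a lone activated library 472 to 476 passed higher and 275 to 325 lower (1489 and 1469). In activated against resting wannabes Hspd1 had adjusted p between 0.0019 and 0.165 over all alternatives. Leaving out a library turned the sign of uncalled differences against wannabes: in control Treg of Hspa8 (-0.0940 to 0.197), Hsp90aa1 (-0.40 to 0.39) and Hspd1 (-0.51 to 0.25), in rescued Treg of Hsp90aa1 (-0.731 to 0.0554), Dnajb1 (-0.0458 to 0.149) and Hspd1 (-0.76 to 0.0034). The replicate block turned Hsp90aa1 in control Treg (0.0575). Hspa1a, untested, lay between -0.94 and 1.51 in rescued Treg against wannabes when a library was left out, and at 0.29 with the block. The cause was not tested. For same-numbered libraries of different populations, the deviations from their group means correlated over genes at -0.029 to 0.084. In a population of 2 libraries these deviations mirror each other, so the values say little on pairing there. The numbers were not taken as pairs. Calls from fits with a lone wannabe or activated library were added after the data had been seen. Such fits assume that the lone library varies like those of the other populations. Leaving out libraries left fewer for the same test. The wannabe and activated populations have 2 libraries each, which limits the precision of every comparison with them.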
